A study of Mus musculus with 9 samples.

Results

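The genes examined here encode the feedback brakes of the ERK pathway: the MAP kinase phosphatases Dusp1, Dusp4, Dusp5, Dusp6 and Dusp10, the Sprouty genes Spry1, Spry2 and Spry4, and the Spred genes Spred1 and Spred2. They were chosen by name, and all 10 were found among the 25239 genes listed in the deposited table. Polyadenylated RNA was sequenced from mouse astrocytes in primary culture, taken from cortex at postnatal day 4 and kept in medium with horse and fetal bovine serum. There were 3 groups of 3 libraries. Control cultures received no hydrogen peroxide. Both other groups had 200 µM of it in the medium for 3 h and were collected after washing, at 24 h for the day 1 group and at 72 h for the day 3 group. The labels give neither mouse strain nor genotype, leave out when controls were collected, and name no separate cultures behind the replicates. The p-values therefore reflect only how far these libraries spread, and that spread may be technical.

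In the ERK pathway, growth factor receptors switch on RAS, which activates the kinases RAF, MEK and ERK in turn, and active ERK enters the nucleus and induces genes that include its own inhibitors. Dual-specificity phosphatases remove the activating phosphates from MAP kinases: DUSP1, DUSP4 and DUSP5 act mainly in the nucleus, DUSP6 acts on ERK in the cytoplasm, and DUSP10 prefers the stress kinases p38 and JNK. Sprouty and Spred proteins act further upstream, between the receptor and RAF, and Spred proteins bring the RAS inhibitor neurofibromin to the membrane. In astrocytes, FGF and EGF receptors are well known inputs to this pathway.

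Levels are FPKM as deposited, that is, read counts scaled by gene length and by the library total. Fold changes come from log2(FPKM + 0.1) of rescaled libraries, which understates changes of low genes. A gene was called at a limma adjusted p under 0.05 over the 12611 genes whose mean reached 1 FPKM, and all 10 feedback genes passed that filter. On day 1 members moved in both directions. The nuclear phosphatase genes Dusp1, Dusp4 and Dusp5 rose, the 3 Sprouty genes and Spred2 fell, and Dusp6, Dusp10 and Spred1 did not pass. With 3 higher and 4 lower of 10, the members were called about as often as genes at large, of which 31.1% were higher and 31.1% lower (62.2% in all) on day 1. For 7 of the 10 the day 1 and control libraries did not overlap on rescaled FPKM, against 67.2% of all genes. The median log2 change over the 10 members was 0.01, against 0.00 over all genes tested. On day 3 against control 1 member, Spry1, was lower, where 6.45% of all genes were lower and 7.37% higher (13.8% in all). No member was higher on day 3 by limma, also at an unadjusted p under 0.05 and with limma-voom on recovered reads. On rescaled FPKM, day 3 and control libraries did not overlap for 2 of the 10 members, Spry1 and Dusp1, against 32.6% of all genes. On FPKM as deposited, used below for single genes, those of Dusp1 overlapped (22.1 in control replicate 1, 22.3 in day 3 replicate 3).

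Dusp1, whose product inactivates p38 and JNK as well as ERK and which is a classic stress and glucocorticoid response gene, stood at 22.1, 22.8 and 24.8 FPKM in the control libraries, 28.9, 30.8 and 30.4 on day 1 and 19.3, 20.4 and 22.3 on day 3. Every day 1 library lay above all control and day 3 libraries. The mean went from 23.3 ± 1.39 to 30 ± 1.03 FPKM (SD, n = 3), a rise of 1.32-fold (95% interval 1.21 to 1.44, limma adjusted p = 9.48e-05). The day 3 mean was 20.6 ± 1.55 FPKM, 1.11-fold below control (log2 change -0.16, adjusted p = 0.0889). That comparison passed with limma-voom on recovered reads (adjusted p = 0.0361) and without day 3 replicate 3 (0.0391). Dusp1 lies on chromosome 17 from 26505591 to 26508472 on the minus strand (GRCm38.p6). Exons of Ergic1, on the opposite strand, share 11 bases with it in GENCODE M21, or 0.332% of its exonic sequence, and Ergic1 was itself 1.20-fold higher on day 1 (adjusted p = 6e-05).

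Dusp4 encodes a nuclear phosphatase of ERK, JNK and p38 and had the largest day 1 change of the 10 genes. It was at 3.70, 3.57 and 3.77 FPKM in control, 5.54, 5.12 and 6.12 on day 1 and 3.22, 3.55 and 3.66 on day 3. The day 1 libraries again stood above all others, and the control and day 3 values overlapped. The rise on day 1 was 1.54-fold (95% interval 1.36 to 1.73, adjusted p = 5.01e-05), from 3.68 ± 0.0994 to 5.59 ± 0.502 FPKM. A larger absolute log2 change was seen in 9.56% of all genes tested. On day 3 it was at 3.48 ± 0.226 FPKM, with a log2 change from control of -0.07 (95% interval -0.24 to 0.11, adjusted p = 0.648). Dusp4 lies on chromosome 8 from 34807610 to 34819894.

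Dusp5, which acts on ERK alone among the MAP kinases, was at 4.84, 5.25 and 5.70 FPKM in control, 6.12, 6.43 and 6.48 on day 1 and 5.59, 5.28 and 5.92 on day 3. The day 1 libraries lay above the control libraries by a small margin, and the day 3 libraries lay between, overlapping control. It rose 1.23-fold on day 1 (95% interval 1.12 to 1.35, adjusted p = 0.00126). On day 3 its log2 change from control was 0.10 (95% interval -0.03 to 0.24, adjusted p = 0.291). Dusp5 lies on chromosome 19 from 53529145 to 53541809, and an antisense gene shares 547 bases, or 22.1%, of its annotated exonic sequence. The sources used here do not say how strand was handled, so reads of the antisense partner cannot be told apart from those of Dusp5.

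The 250 bases before the start of the risen genes Dusp1 and Dusp5 are shown because members that rose together can be compared for shared promoter motifs. They are RefSeq promoters of GRCm38.p6, 5′ to 3′ on the gene's strand, at chr17:26508473-26508722 (minus) and chr19:53528895-53529144 (plus), and 8 of the 10 members were in the promoter table. Dusp4 and Spry4 were not in that table. Capitals mark matches on either strand to the motifs searched. These were the cAMP response element TGACGTCA, its half-site TGACG (which lies inside the full element), the AP-1 site TGANTCA, the ETS site CCGGAA, the TATA box TATAAA and the CArG box of serum response factor.
Dusp1 promoter: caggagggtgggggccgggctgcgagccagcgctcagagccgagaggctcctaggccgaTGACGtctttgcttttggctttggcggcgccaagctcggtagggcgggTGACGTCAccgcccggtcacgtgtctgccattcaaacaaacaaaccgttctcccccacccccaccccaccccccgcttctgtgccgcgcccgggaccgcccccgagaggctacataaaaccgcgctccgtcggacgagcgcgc
Dusp5 promoter: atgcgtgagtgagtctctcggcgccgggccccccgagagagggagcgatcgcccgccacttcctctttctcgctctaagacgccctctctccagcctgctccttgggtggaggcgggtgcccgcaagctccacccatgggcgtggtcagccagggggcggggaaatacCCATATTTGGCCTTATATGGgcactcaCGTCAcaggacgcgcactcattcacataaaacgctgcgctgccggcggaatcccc
The Dusp1 window held 1 full cAMP response element, starting 143 bases before the gene start, a motif present in 1.55% of the 32851 promoters of the table, and a half-site at 191 bases. The Dusp5 window held 2 adjacent CArG boxes, CCATATTTGG at 82 and CCTTATATGG at 72 bases before the start, and a half-site at 55. A CArG box was present in 1.47% of promoters and a half-site in 17.8%. So the motifs matched were not the same in the 2 windows, apart from the half-site. A match describes letters and shows no binding.

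Sprouty genes moved the other way on day 1. Spry2, the most abundant of them and an inhibitor of receptor signalling to RAS, was at 30.4, 31.4 and 31.2 FPKM in control, 21.8, 23.3 and 21.2 on day 1 and 30, 33.2 and 30.3 on day 3. All day 1 libraries lay well below the other 6, and control and day 3 overlapped. The fall on day 1 was 1.37-fold (95% interval 1.28 to 1.47, adjusted p = 9.11e-06), from 31.0 ± 0.548 to 22.1 ± 1.07 FPKM. The day 3 mean of 31.2 ± 1.74 FPKM gave a log2 change from control of 0.02 (95% interval -0.08 to 0.12, adjusted p = 0.808). Spry2 lies on chromosome 14 from 105891947 to 105896819 on the minus strand.

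Spry1, which is best known for restraining growth factor signalling during organ development, was at 10.5, 10.9 and 11.8 FPKM in control, 7.51, 7.45 and 7.72 on day 1 and 9.11, 9.69 and 9.86 on day 3. Here the 3 groups did not overlap at all, with day 3 between day 1 and control. It fell 1.43-fold on day 1 (95% interval 1.32 to 1.54, adjusted p = 6.16e-06). On day 3 it was still 1.14-fold below control (95% interval 1.06 to 1.23, adjusted p = 0.0238), and it was the only one of the 10 genes called in that comparison. The day 3 call ended when either control replicate 3 (adjusted p = 0.0846) or day 3 replicate 1 (0.0924) was left out. Spry1 lies on chromosome 3 from 37639947 to 37644599, and Gm42922, annotated on the opposite strand, shares 24.4% of its exonic sequence.

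Spry4, an FGF-responsive inhibitor of the same family, was at 4.62, 4.79 and 4.38 FPKM in control, 3.36, 3.95 and 3.64 on day 1 and 4.35, 4.69 and 4.35 on day 3. Day 1 libraries were below all others and control and day 3 overlapped. The fall on day 1 was 1.23-fold (95% interval 1.10 to 1.36, adjusted p = 0.00339), and the day 3 log2 change was -0.02 (95% interval -0.18 to 0.13, adjusted p = 0.853). Summed over the 3 Sprouty genes, the level was 45.5 to 47.4 FPKM in control, 32.6 to 34.7 on day 1 and 43.5 to 47.5 on day 3.

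The 250 bases before the start of Spry1 (chr3:37639697-37639946, plus) and Spry2 (chr14:105896820-105897069, minus) are shown for the same comparison among genes that fell. Neither window matched any of the 6 motifs, so no letters are in capitals, which says only that these letters are not in these windows. The window of Spred2, also called lower on day 1, held a half-site 51 bases before its start, the motif that the Dusp1 and Dusp5 windows share. The windows of Dusp6, Dusp10 and Spred1, which were not called on day 1, matched none of the 6 motifs either. Absence of a match was therefore not particular to genes that fell. An ETS site was present in 12% of all promoters, an AP-1 site in 6.75% and a TATA box in 12.4%.
Spry1 promoter: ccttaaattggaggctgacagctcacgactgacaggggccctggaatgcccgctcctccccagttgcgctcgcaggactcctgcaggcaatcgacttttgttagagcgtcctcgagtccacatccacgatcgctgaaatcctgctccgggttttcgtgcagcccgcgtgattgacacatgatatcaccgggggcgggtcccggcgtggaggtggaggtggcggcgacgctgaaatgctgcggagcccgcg
Spry2 promoter: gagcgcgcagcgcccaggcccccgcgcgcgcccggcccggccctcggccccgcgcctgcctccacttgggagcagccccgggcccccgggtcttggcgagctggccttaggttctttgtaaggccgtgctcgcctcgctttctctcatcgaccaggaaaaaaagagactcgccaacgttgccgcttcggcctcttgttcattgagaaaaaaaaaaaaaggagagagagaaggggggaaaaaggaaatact

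Dusp6, the cytoplasmic ERK phosphatase that is widely read as a marker of ERK activity, stayed within a narrow band. It was at 26.9, 27.8 and 28.2 FPKM in control, 26.8, 25.6 and 27.9 on day 1 and 27.5, 28.5 and 29.0 on day 3, and all 3 groups overlapped. Its log2 change was -0.02 on day 1 (95% interval -0.11 to 0.07, adjusted p = 0.726) and 0.05 on day 3 (-0.04 to 0.14, adjusted p = 0.462). Dusp6 lies on chromosome 10 from 99263231 to 99267489. Its intervals leave room for changes of up to about 1.10-fold. A larger absolute change than that of Dusp6 on day 1 was seen in 95.1% of genes tested.

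Dusp10, a phosphatase of p38 and JNK, was the lowest of the 10 genes in every group. It was at 3.03, 2.95 and 2.63 FPKM in control, 2.91, 2.89 and 2.77 on day 1 and 2.72, 2.56 and 2.87 on day 3, with all groups overlapping. At 178 to 316 reads per library, its intervals were wider: the log2 change was 0.03 on day 1 (95% interval -0.13 to 0.19, adjusted p = 0.755) and -0.06 on day 3 (-0.22 to 0.10, adjusted p = 0.663). Dusp10 lies on chromosome 1 from 184034381 to 184075636.

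Spred1, mutated in the RASopathy Legius syndrome in people, had the most reads of the 10 genes, 5128 to 8557 per library. It was at 31.4, 31.4 and 30 FPKM in control, 31.1, 31.9 and 31.4 on day 1 and 31.9, 30.7 and 31.5 on day 3, and the groups overlapped throughout. The log2 change was 0.06 on day 1 (95% interval -0.01 to 0.12, adjusted p = 0.123) and 0.03 on day 3 (-0.03 to 0.10, adjusted p = 0.502). Spred1 lies on chromosome 2 from 117121071 to 117182279 and Spred2 on chromosome 11 from 19924442 to 20024026. Its relative Spred2 was at 25.6, 26.8 and 26.5 FPKM in control, 23.9, 24.4 and 24.2 on day 1 and 25.3, 27.2 and 25.5 on day 3. The day 1 libraries lay below all others, and Spred2 fell 1.07-fold (95% interval 1.01 to 1.13, adjusted p = 0.0486). This call was near the threshold and ended with any one control library left out (adjusted p = 0.0718, 0.121 and 0.0934 for replicates 1, 2 and 3), with any one day 1 library left out (0.129, 0.100 and 0.0562) and with the day 3 library of replicate 3 left out (0.0538). It also ended without the filter on low values (0.0648), which left 3 members lower on day 1. On day 3 the log2 change of Spred2 was 0.00 (adjusted p = 0.984).

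**Figure D1:**
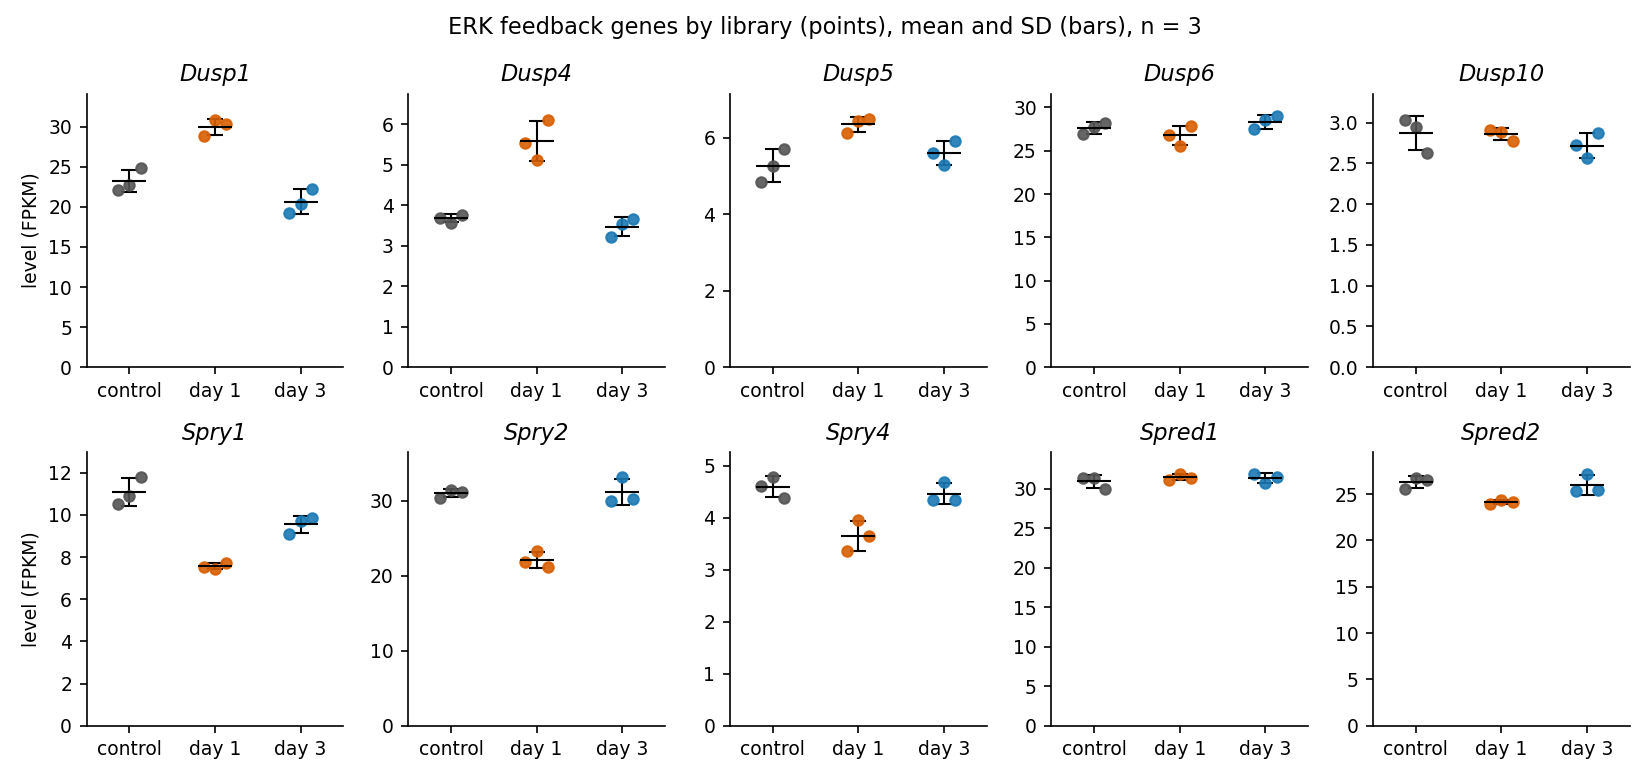
Level in FPKM (vertical axes, each from 0) of the 10 feedback genes in each library (points) by group, with the mean and SD of 3 libraries as bars. The day 1 points of Dusp1 and Dusp4 lie above those of the other groups and those of Spry1, Spry2 and Spry4 below, while Dusp6, Dusp10 and Spred1 overlap between groups.

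Between day 1 and day 3, Dusp1, Dusp4 and Dusp5 fell and Spry1, Spry2 and Spry4 rose, so 3 members were lower and 3 higher where 28.4% and 27.9% of all genes were (56.2% in all). The libraries of the 2 days did not overlap on rescaled FPKM for 7 of the 10 members, against 62.8% of all genes. From day 1 to day 3 Dusp4 fell 1.61-fold (adjusted p = 3.22e-05) and Dusp1 fell 1.47-fold (adjusted p = 1.19e-05). Dusp5 fell 1.14-fold (adjusted p = 0.0170), a call lost without day 1 replicate 3 (0.0593) or day 3 replicate 2 (0.0632). Spry2 rose 1.39-fold (adjusted p = 9.47e-06), Spry1 1.25-fold (0.000264) and Spry4 1.21-fold (0.00656). Dusp6 (log2 change 0.07, adjusted p = 0.173), Dusp10 (-0.09, 0.332), Spred1 (-0.02, 0.563) and Spred2 (0.09, 0.0569) did not pass. Dusp6 passed without day 1 replicate 3 (adjusted p = 0.0323), and Spred2 passed without day 3 replicate 1 (0.0338), on FPKM as deposited (0.0257), after quantile normalization (0.0298) and with limma-voom on recovered reads (0.0480). This comparison and day 1 against control share the day 1 libraries, so a change against day 1 in the opposite direction is not independent of it.

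**Figure D2:**
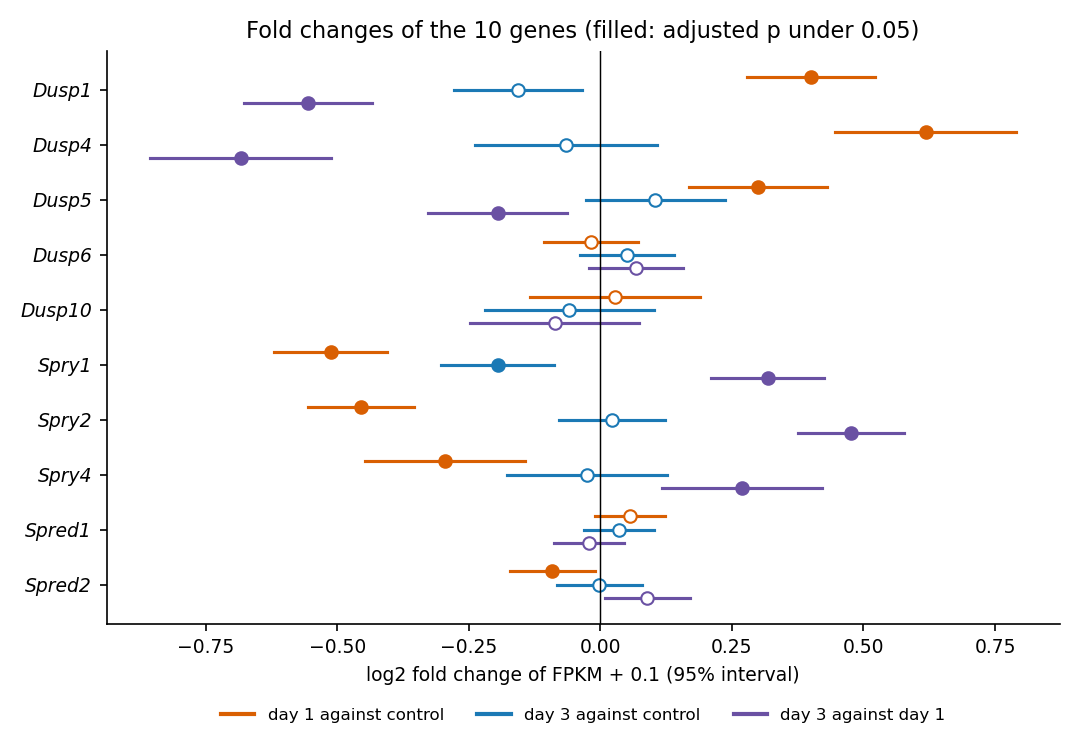
Log2 fold change of FPKM + 0.1 (horizontal axis) with its 95% interval for each gene in 3 comparisons, filled where the limma adjusted p was under 0.05. Dusp1, Dusp4 and Dusp5 lie to the right and the Sprouty genes to the left on day 1, and in day 3 against control only Spry1 is filled.

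Because FPKM is scaled by length, the members can be ranked within a group. In control the order of the mean levels was Spry2 (31.0 FPKM), Spred1 (31.0), Dusp6 (27.7), Spred2 (26.3), Dusp1 (23.3), Spry1 (11.1), Dusp5 (5.26), Spry4 (4.60), Dusp4 (3.68) and Dusp10 (2.87). Of neighbours in this order only Spry2 and Spred1 overlapped. On day 1 no neighbours overlapped: Dusp1 had moved from the fifth to the second place, Spry2 from the first to the fifth, and Dusp4 had passed Spry4. The day 3 order was that of control with Spred1 (31.4 FPKM) and Spry2 (31.2), which overlapped, exchanged. The sum over the 10 genes was 163 to 169 FPKM in control, 158 to 162 on day 1 and 159 to 166 on day 3, while the sum of Dusp1, Dusp4 and Dusp5 went from 30.7 to 34.3 FPKM in control to 40.5 to 43.1 on day 1 and 28.1 to 31.9 on day 3.

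Ratios inside a library do not depend on the scaling between libraries. The ratio of Dusp1 to Spry2 was 0.729, 0.727 and 0.795 in control, 1.32, 1.32 and 1.43 on day 1 and 0.641, 0.614 and 0.737 on day 3. Dusp1 was thus below Spry2 in the 6 control and day 3 libraries and above it in the 3 day 1 libraries. The ratio of Dusp4 to Dusp6, genes for a nuclear and a cytoplasmic phosphatase, was 0.133 ± 0.00457 in control, 0.209 ± 0.00973 on day 1 and 0.123 ± 0.00481 on day 3, and that of Spry2 to Spred1 was 1.00 ± 0.0374, 0.702 ± 0.0276 and 0.994 ± 0.0739. Among the Sprouty genes, the ratio of Spry1 to Spry2 overlapped between control (0.346, 0.348 and 0.378) and day 1 (0.345, 0.320 and 0.364), and was lower in every day 3 library (0.304, 0.292 and 0.326) than in control. No test was run on these ratios.

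**Figure D3:**
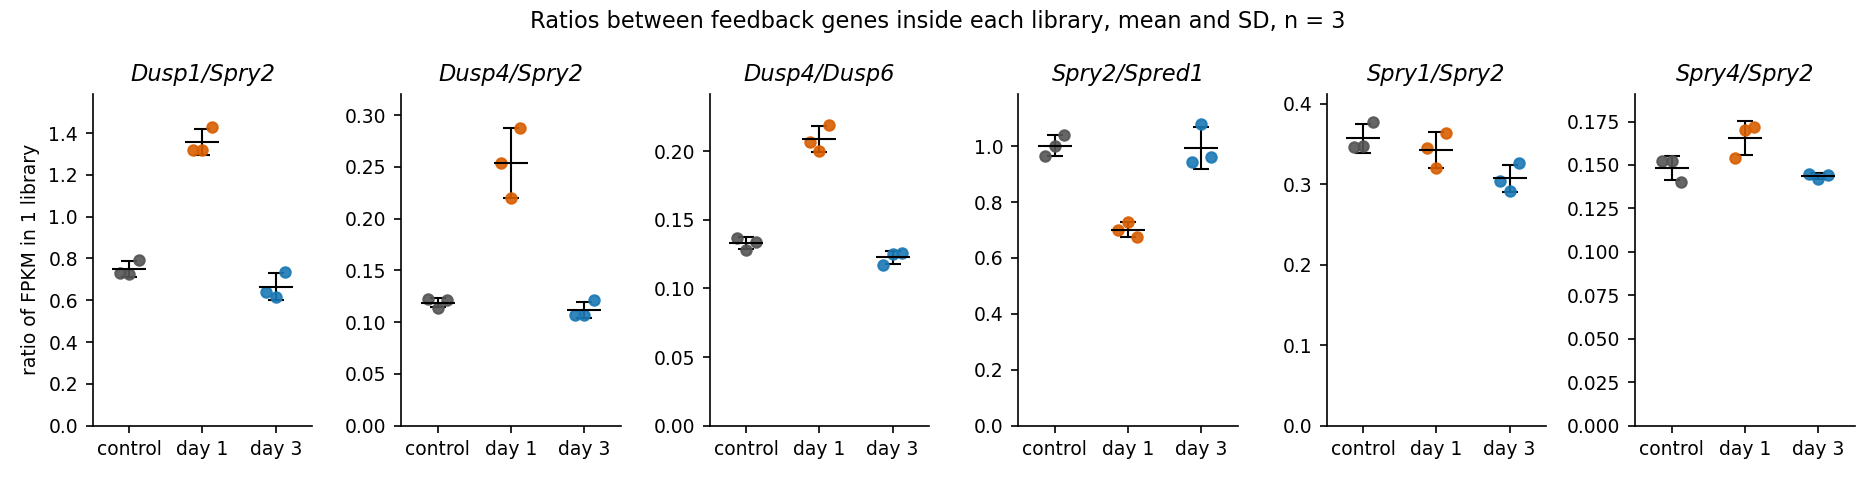
Ratio of the FPKM of gene pairs inside each library (vertical axes, from 0) by group, with the mean and SD of 3 libraries as bars. The ratios of Dusp1 and Dusp4 to Spry2 stand apart on day 1, and the ratio of Spry1 to Spry2 has its lowest mean on day 3, where its range meets that of day 1.

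Of 7 other MAP kinase phosphatase, Sprouty and Spred genes, 4 reached the level filter. On day 1, 2 of the 4 were lower and 0 higher by limma, where 31.1% of all genes were called each way, with 0 higher also at an unadjusted p under 0.05 and with limma-voom. Dusp7, a cytoplasmic ERK phosphatase, fell 1.16-fold from 6.17 ± 0.205 to 5.19 ± 0.153 FPKM (adjusted p = 0.00149), and Dusp8, a JNK and p38 phosphatase, fell 1.20-fold (adjusted p = 0.00948). Dusp16 (log2 change -0.05, adjusted p = 0.456) and Spred3 (0.03, 0.493) did not pass. Dusp9 and Dusp2 were under the level filter and are named after their values were seen. Dusp9 held 17, 14 and 19 reads in control, 56, 53 and 66 on day 1 and 24, 26 and 24 on day 3, and without the filter it was 3.45-fold higher on day 1 (adjusted p = 5.73e-05). Dusp2, an immediate-early nuclear phosphatase, held 14, 12 and 6 reads in control and 20, 29 and 27 on day 1 (adjusted p = 0.00446 without the filter).

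Among 18 genes of the ERK cascade itself, all tested, 7 were higher and 4 lower on day 1, near the 31.1% of all genes called each way (62.2% in all), with a median log2 change of 0.02 against 0.00 over all genes. Mapk3, which encodes the kinase ERK1, fell 1.15-fold from 68.4 ± 3.28 to 58.0 ± 2.39 FPKM (adjusted p = 0.00116). The scaffold gene Ksr1 and the adaptor gene Gab1 had the largest falls of the list, 1.45-fold (adjusted p = 2.86e-05) and 1.44-fold (4.13e-07). Gab1, an adaptor downstream of receptor kinases, went from 33.9 ± 0.678 to 23.0 ± 0.833 FPKM. The FGF receptor adaptor Frs2 rose 1.19-fold and the RAS gene Nras 1.15-fold. On day 3, 1 of the 18 was higher and 1 lower than control, against 7.37% and 6.45% of all genes. Both counts were 0 without control replicate 1 or day 3 replicate 1 or 3, and the count lower was also 0 without control replicate 2.

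Genes known to respond to ERK, apart from the feedback set, had 6 higher and 5 lower of 13 tested on day 1, where 31.1% of all genes were called each way, and a median log2 change of 0.01. Egr1, an immediate-early transcription factor, was at 27.4, 30.2 and 27.1 FPKM in control, 38.2, 51.2 and 51.3 on day 1 and 28.2, 30.9 and 32.7 on day 3, a 1.68-fold rise on day 1 (adjusted p = 9.73e-05). Day 1 libraries lay above all others, with day 1 replicate 1 the lowest of them. Fos, its companion in the immediate-early response, rose 1.23-fold from 35.6 ± 1.16 to 43 ± 5.73 FPKM (adjusted p = 0.00982), and its lowest day 1 library (36.6) lay within the control range. Epha2, a receptor tyrosine kinase, rose 1.55-fold (adjusted p = 1.14e-05).

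The genes that fell on day 1 included the ETS factors Etv4 and Etv5, which FGF signalling induces. Etv4 fell 1.20-fold from 10.9 ± 0.425 to 8.83 ± 0.620 FPKM (adjusted p = 0.000964) and Etv5 1.09-fold from 34.1 ± 0.784 to 30.6 ± 0.925 FPKM (adjusted p = 0.00216). Ccnd1, which encodes cyclin D1, fell 1.19-fold (adjusted p = 0.000908). Larger falls were those of Myc (1.64-fold, adjusted p = 4.85e-07) and Phlda1 (1.39-fold, 6.88e-06). On day 3, Epha2 was 1.30-fold above control (adjusted p = 0.00367) and Myc 1.19-fold below (0.00680), whereas Egr1 (adjusted p = 0.466), Fos (0.651), Etv4 (0.610), Etv5 (0.831) and Ccnd1 (0.866) did not pass. Phlda1, lower on day 1, was 1.14-fold above control on day 3 (limma adjusted p = 0.0223). Its day 3 call was lost under 7 alternatives, among them leaving out control replicate 1 or 2. Of the 13, 5 were higher and 1 lower on day 3, where 7.37% of all genes were higher and 6.45% lower. The 5 were 3 without control replicate 1 or 3 and 2 without control replicate 2 or day 3 replicate 3.

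Other brakes on RAS and ERK were 4 higher and 2 lower of 10 on day 1, near the 62.2% of all genes called in either direction, with a median log2 change of 0.07. Rasa1, a RAS GTPase-activating protein, rose 1.41-fold from 12.7 ± 0.261 to 17.5 ± 0.514 FPKM (adjusted p = 9.74e-07), and Errfi1, a feedback inhibitor of EGF receptors, rose 1.30-fold (6.64e-05). Pebp1, the RAF kinase inhibitor protein, fell 1.30-fold from 251 ± 2.12 to 190 ± 1.23 FPKM (adjusted p = 2.74e-07), and Dab2ip fell 1.12-fold (0.00140).

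Among receptor and ligand genes upstream of the pathway, 4 of 8 FGF genes that reached the filter rose and 2 fell on day 1, where 31.1% of all genes were called each way. Their median log2 change was 0.07. The FGF receptor gene Fgfr1 fell 1.29-fold from 105 ± 1.21 to 79 ± 1.42 FPKM (adjusted p = 5.21e-07), and the non-signalling receptor Fgfrl1 fell 1.24-fold, while the ligand genes Fgf1 (1.36-fold) and Fgf7 (1.43-fold) rose. Among 13 EGF, PDGF and HGF genes, 6 rose and 5 fell against the same 31.1% each way, with a median log2 change of 0.09. Hbegf, an EGF receptor ligand, rose 1.68-fold from 31.3 ± 0.833 to 51.8 ± 2.86 FPKM (adjusted p = 1.74e-07) and Pdgfc rose 1.84-fold, whereas Tgfa, another EGF receptor ligand, fell 2.23-fold and Pdgfra 2.86-fold. Pdgfra also marks oligodendrocyte precursors and fibroblasts. Of the 13 EGF, PDGF and HGF genes, 4 were higher and 3 lower on day 3 against control, where 7.37% and 6.45% of all genes were. Tgfa was then 1.79-fold (limma adjusted p = 4.94e-06) and Pdgfra 1.93-fold (1.14e-05) below control. Pdgfc was 1.17-fold above control (adjusted p = 0.00116), and Hbegf did not pass (0.261).

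The JNK and p38 branch, whose kinases DUSP1, DUSP4 and DUSP10 also inactivate, had 4 risen and 4 fallen genes among 10 on day 1, where 62.2% of all genes were called, and a median log2 change of 0.06. Map2k4, a kinase that activates JNK, rose 1.52-fold from 11.5 ± 0.227 to 17.2 ± 0.372 FPKM (adjusted p = 4.13e-06), and Mapk8, which encodes JNK1, rose 1.18-fold (0.00727). Map2k7, the other JNK activator, fell 1.22-fold (adjusted p = 3.02e-05) and Mapk12, a p38 gene, fell 1.40-fold (0.000169). On day 3 limma called 0 of the 10, where 13.8% of all genes were called. The count was 1 at an unadjusted p under 0.05, 1 with limma-voom and 1 without day 3 replicate 2.

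**Figure D4:**
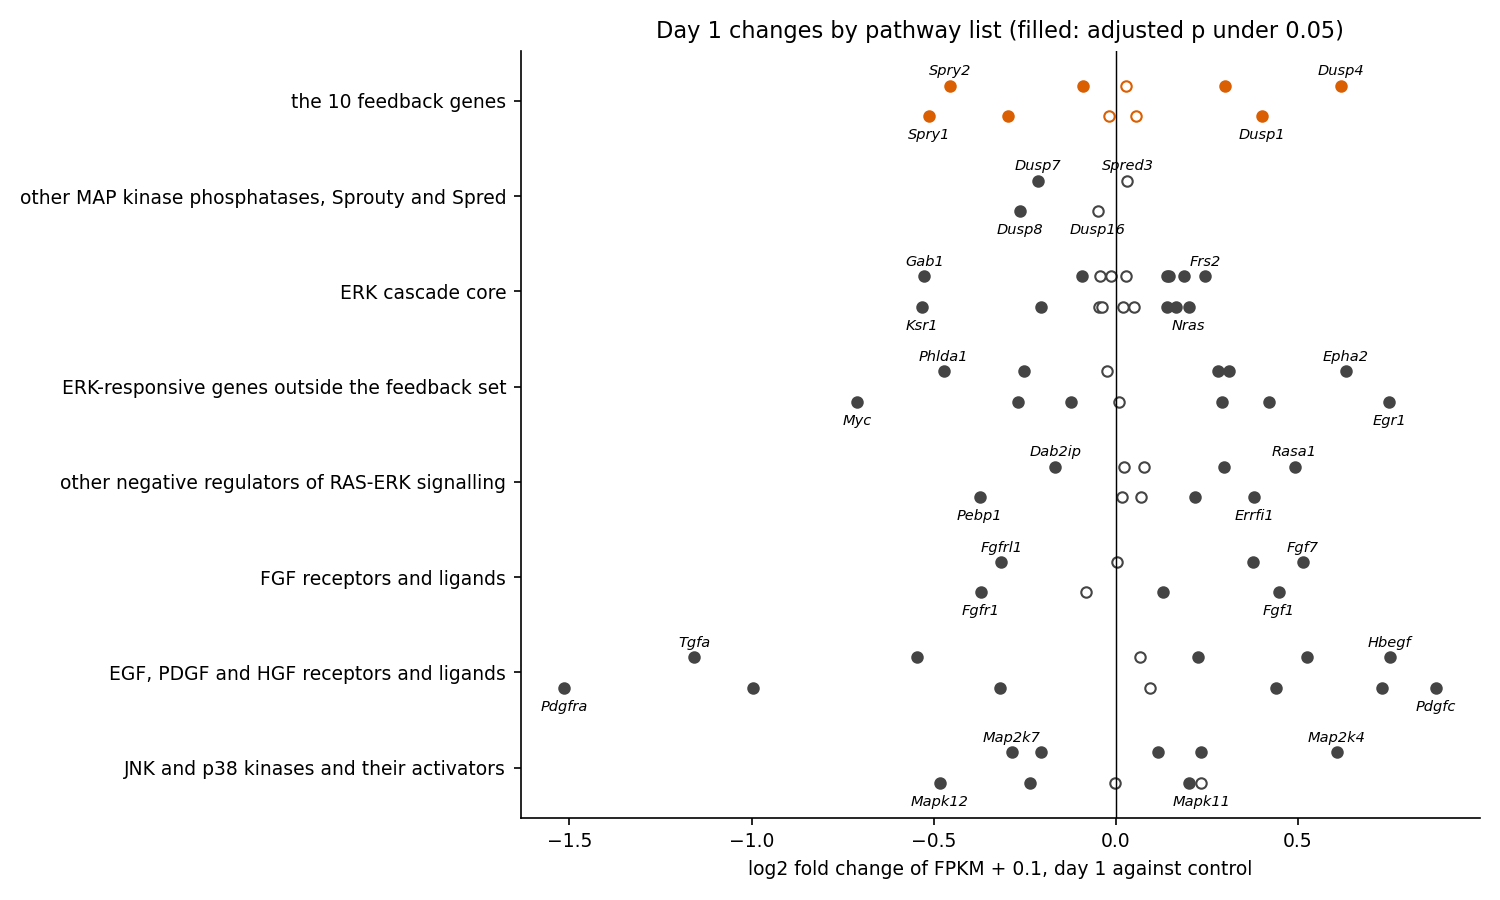
Log2 fold change of FPKM + 0.1 on day 1 against control (horizontal axis) for each tested gene of the 10 feedback genes and the 7 pathway lists (rows, with points staggered only to separate them), filled where the limma adjusted p was under 0.05. Filled points lie on both sides of 0 in every row but that of the other phosphatase, Sprouty and Spred genes, where both are to the left.

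The gene whose day 1 change was largest among the members, Dusp4, was compared with all other tested genes over the 9 libraries. The likeness measure was the Euclidean distance between log2 values centred on each gene's mean, with a median of 1.00 over all genes. Nearest were Bok, a BCL2 family member (distance 0.189), Cryab, a small heat shock protein (0.195), Peg10 (0.202), Tstd3 (0.229) and Mgll, monoacylglycerol lipase (0.235). Cryab, for one, went from a mean of 89.7 FPKM in control to 145 on day 1 and 91.1 on day 3.

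RNA from other cells in the cultures moved with the same comparison, and in bulk RNA fewer cells of a type and less RNA per cell cannot be told apart. All 9 astrocyte markers were detected, with Gfap at a mean of 1490 FPKM in control, and their summed level was 2770 to 2840 FPKM in control, 2050 to 2310 on day 1 and 2550 to 2580 on day 3. Much of that sum was Gfap (mean 1490 of 2800 FPKM in control, 1.18-fold lower on day 1). Slc1a2 was 1.77-fold and Slc1a3 1.65-fold lower on day 1, and Aldh1l1 1.26-fold and Aqp4 1.12-fold higher. On day 1, 6 of the 9 were lower and 2 higher, with a median log2 change of -0.43. Beside this and the marker counts that follow, 31.1% of all genes were called each way on day 1. Of 8 microglia markers tested, 7 were lower and 1 higher on day 1, and the sum of 9 went from 174 to 196 FPKM in control to 72.9 to 78.1 on day 1 and 149 to 185 on day 3, with a median log2 change of -1.33 on day 1. All 8 tested markers of the oligodendrocyte lineage were lower on day 1, with a sum of 9 at 499 to 529, 335 to 361 and 413 to 446 FPKM in the 3 groups. Most of that sum was Olig1 (348 FPKM in control, 1.22-fold lower on day 1), while the median log2 change of the 8 was -2.04, with Gpr17 12.9-fold, Bcas1 7.74-fold and Sox10 4.68-fold lower. On day 3 against control, 7 of the 8 were lower and 0 higher, where 6.45% and 7.37% of all genes were. Their median log2 change was then -0.76, with Gpr17 4.24-fold, Bcas1 4.15-fold and Sox10 2.58-fold lower, while Olig1 did not pass. For 6 fibroblast markers the sum was 129 to 136, 90.7 to 98.3 and 137 to 141 FPKM, with 3 lower and 1 higher of 4 tested on day 1. Much of that sum was Ogn (69.3 FPKM in control), the 1 that was higher (1.16-fold). The median log2 change of the 4 was -1.06, with Dcn 4.90-fold, Pdgfra 2.86-fold and Lum 1.53-fold lower. Mural markers (6, sum 16 to 17.2, 18.8 to 20.7 and 17.6 to 18.5 FPKM), endothelial markers (5, sum 12.2 to 13.1, 11.6 to 12.4 and 14.2 to 15.2) and neuron markers (5, sum 38.4 to 40.7, 39.2 to 42.2 and 40.5 to 42.8) had 3, 4 and 4 members under 1 FPKM. No marker of any list was at 0 in all libraries, but Cldn5, an endothelial marker, held 1 read in control replicate 2 and none elsewhere. In control, most of the endothelial sum was Cdh5 (mean 11.1 of 12.7 FPKM). Tubb3 made up most of the neuron sum (37.7 of 39.2) and Notch3 of the mural sum (12.2 of 16.5). These 3 sums therefore say little of their other markers. The part of these cells in the changes of Dusp and Sprouty genes was not tested.

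Depth differed between groups as well. Library totals worked out from the FPKM were 30278210 to 38414668 reads in control, 23032594 to 27850348 on day 1 and 30545004 to 36749577 on day 3. The ribosomal precursor Rn45s took 9.41% to 11.9% of reads in control, 7.67% to 9.36% on day 1 and 9.15% to 11.1% on day 3. Without the libraries with the highest shares (control replicate 1 and day 3 replicate 2), the members called were again 3 higher and 4 lower on day 1, none higher and 1 lower on day 3, and 3 each way between the days. In that fit, 3641 of all 12611 genes were higher and 3592 lower on day 1. On day 3 against control they were 672 and 649, and between the days 3039 and 3220.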

How the data were processed

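The deposited table holds FPKM per gene symbol, computed by the authors for each of 9 libraries. The tools named, per the submitters' processing notes, are DESeq2, STAR 2.7.3a, cutadapt 2.6 and FastQC 0.12.1, and the builds are GRCm38 and mm10. The sources used here name no counting program, annotation, strand handling or filter. Each column was matched to a library by its description, and none was left over. All 20350 genes above 0 gave whole reads, to within 0.01 read, for a whole gene length and library total.

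FPKM were rescaled by median-of-ratios factors (0.976 to 1.02), the 12611 genes averaging 1 FPKM or more kept, and log2(FPKM + 0.1) fitted on all 9 libraries with group as the only term (limma 3.58.1, R 4.3.3, intensity trend). Tests were two-sided, with Benjamini-Hochberg adjustment over all genes tested. The code of the fit was also run on simulated libraries with the same spread set for every gene, unlike these data. No result here rests on that run. Members, lists and the rule for naming genes (all members; from each list up to 2 risen and 2 fallen called genes with the largest change against control and groups that do not overlap; Egr1, Fos, Etv4, Etv5, Ccnd1, Mapk3, Dusp7, Dusp16 and Spred3 whatever their values, and another gene not reported here) were chosen with earlier results of these data known. Pathway lists are described by counts and medians. Counts of groups that do not overlap, and the naming rule, used rescaled FPKM. Alternatives covered pseudocount, filter, scaling, libraries in the fit, replicate number, threshold, limma-voom on recovered reads and each library left out. Promoters came from RefSeq (GRCm38.p6), and figures were drawn with matplotlib 3.10.9.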

Additional observations from a re-analysis of the deposited data

Results flagged for a closer look

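For 6 of the 10 members the change against control differed between the harvest days, by the limma test of day 3 against day 1 itself. That test called 56.2% of all genes, so 6 of 10 is near the share over all genes. The log2 difference, day 3 minus day 1, was -0.56 for Dusp1, -0.68 for Dusp4 and -0.19 for Dusp5. It was 0.32 for Spry1, 0.48 for Spry2 and 0.27 for Spry4. Values for single libraries are given above. Groups of 3 libraries were too small for a check on single outlying libraries.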

How the results depend on the processing

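The day 1 calls of Dusp1, Dusp4, Dusp5, Spry1, Spry2 and Spry4 kept their direction and passed under all 19 alternatives. The members lower on day 3 against control, 1 in the analysis above, were 2 with limma-voom on recovered reads, 0 at an adjusted p under 0.01, and 0 to 2 with 1 library left out. Of all 12611 genes, 813 were lower in the analysis above, 1143 with limma-voom and 340 at an adjusted p under 0.01. With 1 library left out they were 465 to 834, and with replicate number in the fit 838. Replicate numbers did not pair the libraries: deviations from the group means of same-numbered libraries correlated across genes at -0.08 to 0.11, and not every library correlated best with its own number. With the replicate block the members lower on day 3 were 2 (Dusp1 added, adjusted p = 0.0154) and Spred2 passed between the days (0.0466); the block changed no other member's call. Directions turned only for changes that passed in neither fit. With 1 library left out, log2 changes ranged on day 1 from -0.0577 to 0.0224 for Dusp6 and from -0.0373 to 0.0784 for Dusp10, and on day 3 from -0.0341 to 0.0526 for Spry2 and from -0.0441 to 0.0225 for Spred2. On FPKM as deposited Dusp10 was at -0.0031 on day 1. Without the 2 libraries highest in Rn45s, a choice made after seeing the data, Dusp10 was at 0.0218 and Spry2 at -0.0372 on day 3. Between the days it was Spred1 after quantile normalization (0.0064). The cause was not tested. Genes called on day 3 against control numbered 1742, and 1030 and 1022 without day 3 replicate 1 and 3, or 751 at an adjusted p under 0.01. Without the level filter, the other phosphatase, Sprouty and Spred genes higher on day 1 were 2 in place of 0. Dusp10 and Dusp4, with 178 to 346 reads per library, had the widest intervals.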

Other observations

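Some ligand and target genes of the pathway lay under the level filter and are given as values, chosen after they were seen. Areg, an EGF receptor ligand, held 0, 0 and 1 reads in control, 10, 7 and 9 on day 1 and 4, 3 and 2 on day 3. Ereg, a related ligand, was at 0.264, 0.195 and 0.230 FPKM in control, 0.838, 0.547 and 0.682 on day 1 and 0.443, 0.429 and 0.434 on day 3, and in the limma fit without the filter it was higher than control on both days (adjusted p = 0.000223 and 0.0324). Fosl1, an AP-1 subunit, held 24, 48 and 38 reads in control and 50, 50 and 40 on day 1 (adjusted p = 0.00658 in that fit).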
